A study of Mus musculus with 4 samples.

Results

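Runx2, Sp7, Dlx5, Alpl, Ibsp, Spp1, Bglap and Pth1r, the osteoblast transcription factors, matrix genes and hormone receptor of bone formation, are described here in single mesenchymal cells of mouse fracture callus. They are 8 of the 32285 genes counted, and all 8 had UMIs in each of the 4 libraries. They were followed in cells with at least 20 Col1a1 UMIs and no Ptprc UMI, Col1a1 being a chain of type I collagen and Ptprc the pan-leukocyte marker CD45. This gate held 8777 of the 25479 cells kept. A UMI (unique molecular identifier) stands for 1 captured RNA molecule, and CPM below is the count scaled to the summed UMIs of the same cells.

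Osteoblasts arise from mesenchymal progenitors under Runx2, the transcription factor without which no bone forms, and Sp7 (osterix), which acts after it. Dlx5 is a homeodomain factor upstream of both. Committed cells make Alpl, the alkaline phosphatase that removes the mineralization inhibitor pyrophosphate, then bone sialoprotein (Ibsp) and osteopontin (Spp1), and as mature osteoblasts osteocalcin (Bglap). Pth1r is the receptor for parathyroid hormone and its related peptide on osteoblasts and growth cartilage. A fracture callus makes cartilage before much of its bone, and chondrocytes near hypertrophy use Runx2, Sp7, Alpl, Ibsp, Spp1 and Pth1r as well. Macrophages and osteoclasts are a further well known source of Spp1.

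Runx2 binds the letters ACCACA, searched here on both strands, and the 250 bases before the start of a matrix gene show where these letters stand. They are in 3 of the 10 RefSeq start windows of the 6 genes with an entry, those of Bglap, Spp1 and Runx2, and in 14.0% of all 32851 windows of this length in the same table. The Bglap and Spp1 windows are shown because these are the matrix genes whose windows hold a match. Both are from RefSeq, build GRCm38.p6, read 5′ to 3′ along the gene, from chr3:88384467-88384716 on the minus strand and chr5:104434861-104435110 on the plus strand, with the matching letters in capitals.
Bglap: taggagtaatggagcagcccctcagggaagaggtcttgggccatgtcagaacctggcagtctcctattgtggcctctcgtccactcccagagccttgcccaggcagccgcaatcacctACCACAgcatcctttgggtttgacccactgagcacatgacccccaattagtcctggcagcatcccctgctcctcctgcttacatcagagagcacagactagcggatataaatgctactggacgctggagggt
Spp1: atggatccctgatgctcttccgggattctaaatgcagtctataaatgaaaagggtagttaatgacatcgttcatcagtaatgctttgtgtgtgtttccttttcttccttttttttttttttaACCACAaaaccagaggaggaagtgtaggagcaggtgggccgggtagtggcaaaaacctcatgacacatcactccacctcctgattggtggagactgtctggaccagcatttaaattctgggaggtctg
The match begins 132 bases before the start of Bglap and 128 bases before that of Spp1. In the Runx2 window it begins 80 bases before the RefSeq start, inside the longer gene span that GENCODE gives. The windows of Ibsp, Alpl and Pth1r have no ACCACA on either strand. TAATTA, the core read by homeodomain factors such as Dlx5, is in 4.84% of all windows and in 1 of the 10, a second Spp1 window. These are descriptions of letters and say nothing of binding. Sp7 and Dlx5 have no entry. In GRCm38 the genes lie at chr17:44495987-44814797 (Runx2, minus strand), chr15:102356606-102367182 (Sp7, minus), chr6:6877805-6882085 (Dlx5, minus), chr4:137741733-137796384 (Alpl, minus), chr5:104299171-104311469 (Ibsp, plus), chr5:104435118-104441050 (Spp1, plus), chr3:88383501-88384464 (Bglap, minus) and chr9:110722085-110747145 (Pth1r, minus).

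Callus came from wild-type C57BL/6J mice that were 3 months old, given either vehicle (control) or K/BxN serum, which transfers an inflammatory arthritis (RA), and was taken at 4 or 7 days post fracture (dpf). The libraries are control_4d, RA_4d, control_7d and RA_7d, and values listed without names follow this order. Each came from 1 pool of callus, for which the series text gives 4 calluses and the paper's methods n = 3, with 10000 cells loaded. Each condition is therefore a single measurement, and no difference was tested. The intervals (95%) reflect counting error alone, and the condition, the pool and the library preparation cannot be told apart.

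The gate held 951 and 755 cells at 4 dpf (control_4d and RA_4d) and 3050 and 4021 at 7 dpf (control_7d and RA_7d), with median totals of 24284.5 to 30945 UMIs. All 6 mesenchymal markers (Prrx1, Pdgfra, Pdgfrb, Col1a2, Col3a1 and Lum) were detected in each library, with a summed level of 23861 to 39694 CPM. Of the 8 myeloid markers, all 8 were detected at 45.5 to 93.7 CPM in sum, and the 4 endothelial markers reached 33.6 to 51.0 CPM. The chondrogenic markers were at 108 and 132 CPM in control_4d and RA_4d, with Matn1 at 0 in both, and at 2897 CPM in control_7d and 1381 CPM in RA_7d. The gate thus held cartilage genes at 7 dpf, more of them in control_7d. Hemoglobin genes, a sign of red cell RNA, summed to 6.16 CPM in RA_4d and to 424 to 550 CPM in the other libraries. Any 2 libraries shared at most 3 barcodes of gated cells.

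Runx2 was the most widely detected transcription factor. Its gene spans 318811 bases, and whether reads from its introns were counted is not given in the sources used here, which bears on its level and its rank. Its level was 96.8 CPM in control_4d (93.2 to 100.4, from 2773 UMIs), 166 in RA_4d (161 to 172), 229 in control_7d (225 to 232) and 135 in RA_7d (133 to 137). Control_7d was highest, and RA lay above control at 4 dpf and below it at 7 dpf. To compare cells at 1 depth, each was thinned at random to 10000 UMIs, which left out the 27 to 189 shallower cells of a library. A Runx2 UMI was then present in 38.6% of cells in control_4d (35.4 to 41.8), 56.0% in RA_4d (52.4 to 59.7), 68.1% in control_7d (66.4 to 69.8) and 49.6% in RA_7d (48.0 to 51.2). Without thinning the shares were 57.8%, 75.2%, 82.0% and 67.4% in the same order. Endothelial cells, with median totals of 13463 to 19701 UMIs and thinned alike, serve as the background of free RNA, and 1.36% to 4.20% of them had a Runx2 UMI.

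Sp7 was much rarer. Its level was 0.558 CPM in control_4d (16 UMIs, 0.319 to 0.907), 1.74 in RA_4d (39 UMIs, 1.24 to 2.38), 9.09 in control_7d (693 UMIs, 8.43 to 9.80) and 3.49 in RA_7d (347 UMIs, 3.14 to 3.88). After thinning 0.436%, 1.65%, 6.05% and 2.01% of cells had an Sp7 UMI (1.16%, 2.91%, 9.28% and 3.58% without thinning), against 0% to 0.312% of endothelial cells. At 7 dpf both libraries were above that background, whereas in control_4d and RA_4d the intervals of the share overlapped it. The gated Sp7 level was 7.53 times the endothelial one in control_4d (1.17 to 315.7) and 16.96 times in RA_4d (2.87 to 686.8). These ratios are imprecise, since the endothelial cells held 1 Sp7 UMI in each of these libraries.

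Dlx5 varied least among the transcription factors. It was at 4.36 CPM in control_4d (3.63 to 5.20), 7.72 in RA_4d (6.61 to 8.96), 7.41 in control_7d (6.82 to 8.05) and 4.18 in RA_7d (3.79 to 4.60). RA_4d and control_7d did not differ beyond their counting intervals, and neither did control_4d and RA_7d. Thinned shares were 2.94%, 5.22%, 5.46% and 3.03% (8.10%, 12.7%, 11.1% and 5.97% without thinning), against at most 0.416% of endothelial cells.

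Alpl was far higher at 7 than at 4 dpf. It was at 4.82 CPM in control_4d (4.05 to 5.69), 10.5 in RA_4d (236 UMIs), 95.2 in control_7d (93.0 to 97.4) and 44.0 in RA_7d (42.7 to 45.4). Its thinned shares were 1.53%, 4.26%, 16.3% and 8.19% of cells (4.00%, 7.68%, 19.8% and 10.9% without thinning). Endothelial cells also make this phosphatase, and 3.56%, 2.61%, 5.07% and 3.12% of them had an Alpl UMI, so that the mesenchymal interval lay above theirs only at 7 dpf. By level, mesenchymal Alpl in RA_4d was 1.58 times endothelial Alpl (1.20 to 2.11), and 0.580 times in control_4d (0.449 to 0.751).

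Ibsp differed widely between the libraries. It was at 4.61 CPM in control_4d (132 UMIs, 3.85 to 5.46), 56.6 in RA_4d (1269 UMIs, 53.5 to 59.8), 995 in control_7d (75811 UMIs) and 329 in RA_7d (32718 UMIs, 326 to 333). Thinned shares were 0.545%, 3.30%, 13.7% and 5.90% (0.631%, 3.97%, 21.0% and 11.1% without thinning). Of the endothelial cells 0%, 0.238%, 9.86% and 4.78% had an Ibsp UMI, so the interval of RA_7d overlapped its background, although the level there was 21.7 times that in endothelial cells (19.2 to 24.5). The counts were held by few cells, since the top 17 cells of control_7d, 6 of RA_7d and 5 of RA_4d were enough to hold 50% of their library's Ibsp UMIs. In control_4d a single cell held 99 of the 132 UMIs (75.0%), and without it the level was 1.15 CPM. Cells with at least 10 Ibsp UMIs numbered 2 in control_4d, 21 in RA_4d, 187 in control_7d and 59 in RA_7d.

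Spp1 was at 201 CPM in control_4d (196 to 207), 444 in RA_4d (435 to 452), 561 in control_7d (556 to 566) and 269 in RA_7d (266 to 273). The share of cells took another order, with thinned values of 44.9%, 27.3%, 40.9% and 18.5% (72.5%, 42.9%, 55.9% and 28.2% without thinning). In endothelial cells it was 41.9%, 13.3%, 16.4% and 9.56%, and in control_4d the mesenchymal share (41.6 to 48.2) overlapped the endothelial one (37.8 to 46.0), so that this share is at the level of background. By level, gated Spp1 in control_4d was 1.55 times endothelial Spp1 (1.47 to 1.63), and 77 gated cells had at least 10 Spp1 UMIs, 93.5% of them with a Runx2 UMI. Of the Spp1 UMIs of RA_4d, 35.0% (3480 of 9945) lay in 1 cell, and without that cell the level was 289 CPM. The cell held 33 Runx2 and 170 Mmp13 UMIs, no Lyz2, Cd68 or Col2a1 UMI and 204 Col1a1 UMIs. By the doublet-free value given below, it was among the 4 gated RA_4d cells called doublets.

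Bglap was the least often detected. It had 3 UMIs in control_4d, 6 in RA_4d, 1642 in control_7d and 147 in RA_7d, or 0.105, 0.268, 21.5 (20.5 to 22.6) and 1.48 CPM (1.25 to 1.74). Thinned shares were 0.218%, 0.137%, 2.10% and 0.757% (0.315%, 0.662%, 3.25% and 1.47% without thinning), against 0.508%, 0.713%, 0.580% and 0.312% of endothelial cells. By interval of the share only control_7d was above its background, while by level RA_7d was 3.68 times endothelial Bglap (1.74 to 9.32). The top cell held 364 of the 1642 UMIs in control_7d (22.2%) and 46 of the 147 in RA_7d (31.3%), and without it the levels were 16.8 and 1.02 CPM. The last 300 bases of the Bglap and Bglap2 transcripts, where a 3′ library reads, are 99.67% identical, so counts of these osteocalcin copies cannot be cleanly told apart. Summed over Bglap, Bglap2 and Bglap3 the level was 0.419, 0.625, 36.0 and 2.25 CPM, in the same order.

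Pth1r was broadly detected in all 4 libraries. It was at 32.7 CPM in control_4d (30.6 to 34.8), 38.8 in RA_4d (36.2 to 41.4), 119 in control_7d (117 to 122) and 59.5 in RA_7d (58.0 to 61.1). Thinned shares lay between 23.5% and 31.4% (40.5% to 55.5% without thinning), with at most 4.05% of endothelial cells. The share therefore varied far less than the level, and the mean count in a positive cell went from 1.26 UMIs in control_4d and 1.32 in RA_4d to 3.49 in control_7d and 2.27 in RA_7d.

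**Figure D1:**
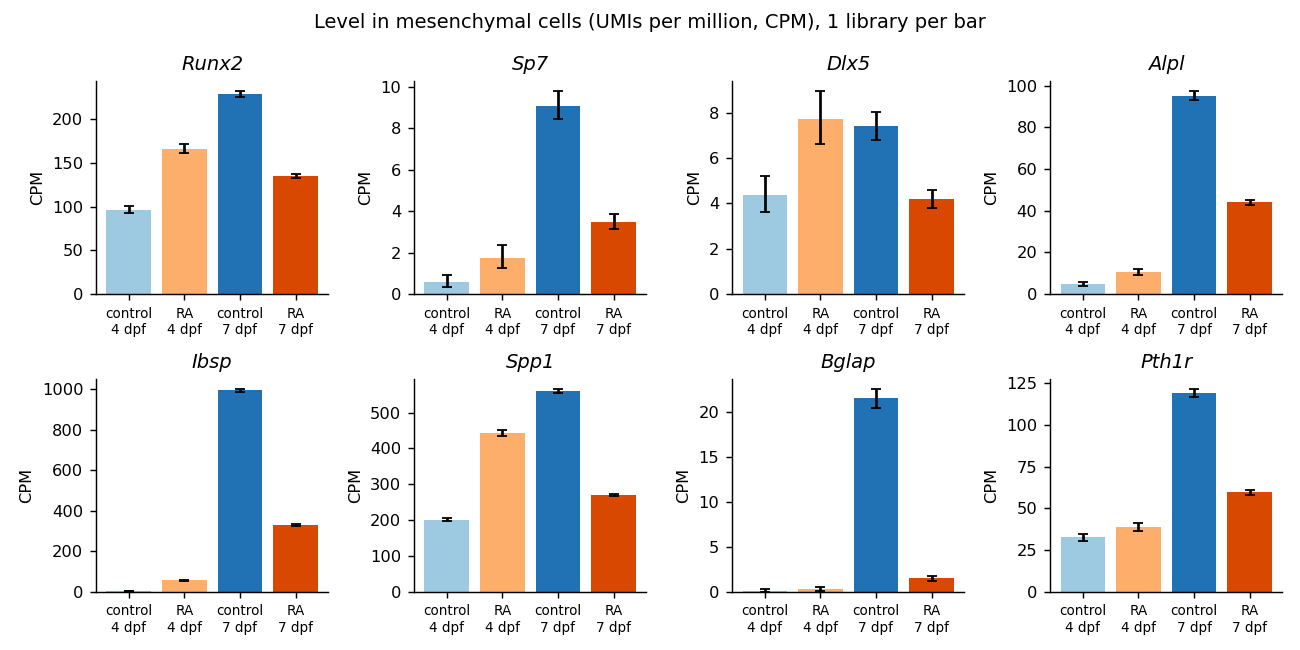
Level of each gene in the gated mesenchymal cells, as bars in CPM on a linear axis that starts at 0 and has its own range for each gene, 1 library per bar, with exact Poisson intervals (95%) as error bars. Control_7d was the highest library for every gene except Dlx5, which was at 7.72 CPM in RA_4d and 7.41 in control_7d.

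The order of detection at 7 dpf ran from Runx2 to Bglap in both conditions. In control_7d it was Runx2, Spp1, Pth1r, Alpl, Ibsp, Sp7, Dlx5 and Bglap, where Alpl and Ibsp overlapped in their intervals, as did Sp7 and Dlx5. In RA_7d it was Runx2, Pth1r, Spp1, Alpl, Ibsp, Dlx5, Sp7 and Bglap, with no neighbours overlapping. At 4 dpf Spp1, Runx2 and Pth1r headed the list in control_4d and Runx2, Pth1r and Spp1 in RA_4d. Dlx5, Alpl, Ibsp, Sp7 and Bglap followed in both. Spp1 and Runx2 overlapped in control_4d, as did Pth1r and Spp1 in RA_4d. From Dlx5 on, each gene overlapped the next, except Sp7 and Bglap in RA_4d, so the counts do not resolve this order. Of Dlx5, Alpl, Ibsp, Sp7 and Bglap, Dlx5 in both 4 dpf libraries and Ibsp in RA_4d stood above the endothelial interval. Counting all genes, 3 of 8 were above it in control_4d, 5 in RA_4d, 8 in control_7d and 6 in RA_7d. The order is one of detection in sampled cells and follows each gene's capture as well as its expression.

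**Figure D2:**
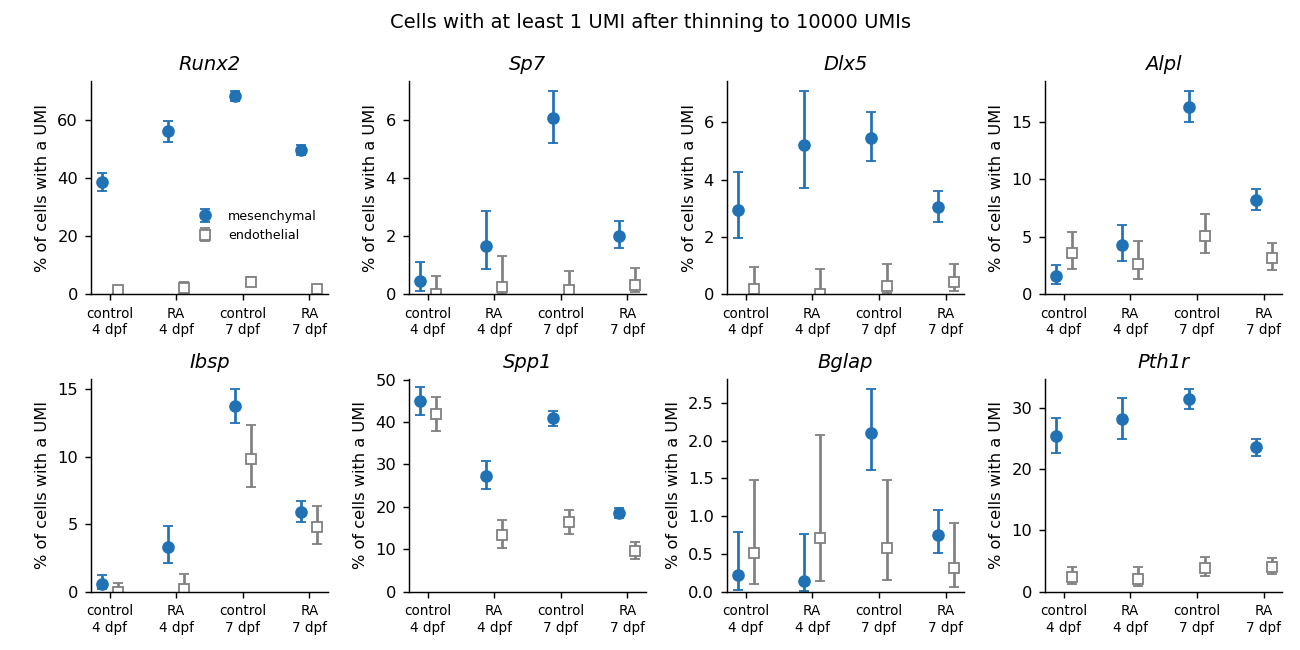
Percent of cells with at least 1 UMI of each gene after thinning to 10000 UMIs, in mesenchymal cells (filled circles) and endothelial cells (open squares) of each library, with exact Clopper-Pearson intervals (95%). Spp1 in control_4d sat at 44.9% beside an endothelial 41.9%, whereas Runx2 and Pth1r were far above their background in each library.

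From 4 to 7 dpf in control callus, 7 of the 8 genes were over 2-fold higher, where 1.72% of the 15905 genes with at least 50 UMIs were as much higher. On the log2 scale with 1 CPM added, the differences were 7.47 for Ibsp, 4.35 for Bglap, 4.05 for Alpl, 2.70 for Sp7, 1.84 for Pth1r, 1.47 for Spp1, 1.23 for Runx2 and 0.65 for Dlx5. The Bglap ratio rests on 3 UMIs in control_4d and was 206, with an interval of 70.3 to 999. With the looser cell filter Runx2 was at 0.55 and Spp1 at −0.10 in control, so neither passed 2-fold. In RA callus 2 of 8 were over 2-fold higher, Ibsp at 2.52 and Alpl at 1.97, against 1.82% of genes. Bglap was at 0.97, Sp7 at 0.71 and Pth1r at 0.61, while Runx2 was at −0.30, Spp1 at −0.72 and Dlx5 at −0.75. Without cells holding at least 10 Col2a1 UMIs neither Ibsp nor Alpl was over 2-fold higher in RA. These comparisons share their libraries with those of RA against control.

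At 4 dpf the 7 genes with at least 50 UMIs were all higher in RA than in control, 2 of them over 2-fold, beside 0.699% of genes as much higher. Ibsp was 12.3-fold higher (10.3 to 14.8; log2 3.36) and Spp1 2.20-fold (2.13 to 2.28; log2 1.14). The log2 differences were 0.99 for Alpl, 0.81 for Sp7, 0.78 for Runx2, 0.70 for Dlx5 and 0.24 for Pth1r, with a median of 0.81 over the 7 genes and 0.03 over all 14154. Without the cell with the most Ibsp UMIs of each library, Ibsp was at 1.15 CPM in control_4d and 48.3 in RA_4d. Without the gated cell with the most Spp1 UMIs of each library, which was chosen after seeing the data, the Spp1 difference was 0.61. With doublets left out it was 0.52. That value can be reached only if the top Spp1 cell of RA_4d is among its 4 gated doublets, so these are not separate checks. With looser limits on total UMIs, features and mitochondrial share the Spp1 difference was −0.27, so its direction turned. Control_4d then took in 455 gated cells above 50000 UMIs, and Spp1 in such cells was at 986 CPM there and 497 in RA_4d.

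At 7 dpf all 8 genes were lower in RA than in control, 5 of them over 2-fold, where 0.906% of genes were. Bglap was at 0.0687 of control (0.0576 to 0.0814; log2 −3.18), Ibsp at 0.331 (0.327 to 0.335; −1.59), Sp7 at 0.384 (0.337 to 0.438; −1.17), Alpl at 0.463 (0.446 to 0.481; −1.09) and Spp1 at 0.480 (0.473 to 0.488; −1.06). Pth1r was at −0.99, Runx2 at −0.76 and Dlx5 at −0.70 on the log2 scale. With 10 CPM added Sp7 (−0.50) and Alpl (−0.96) fell short of 2-fold, as did Spp1 (−0.78) with the looser cell filter. The median was −1.07 over the 8 genes and −0.03 over all 17210. Of the gated cells, 14.1% in control_7d and 31.4% in RA_7d held no UMI of any of the 8 genes after thinning.

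Cells with cartilage genes were also fewer in RA_7d than in control_7d. Gated cells with at least 10 UMIs of Col2a1, the cartilage collagen, were absent at 4 dpf and made up 8.33% of control_7d (254 cells) and 3.53% of RA_7d (142 cells). This limit was chosen after seeing the data. In control_7d and RA_7d these cells held 90.5% and 82.4% of the gated Ibsp UMIs, 89.9% and 61.9% of Bglap, 69.4% and 56.1% of Pth1r, 67.8% and 59.4% of Alpl, and 67.1% and 70.9% of Sp7. Their part was smaller for Spp1 (41.7% and 33.5%), Dlx5 (40.9% and 33.7%) and Runx2 (19.8% and 18.1%). Most of the Ibsp, Sp7, Alpl, Pth1r and Bglap counted at 7 dpf was thus in cells that also carried cartilage collagen.

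Within the Col2a1 cells 1 of the 8 genes was over 2-fold lower in RA, beside 1.05% of genes. That gene was Bglap, at 199 CPM in control_7d and 21.3 in RA_7d (log2 −3.16), and the median of the 8 was −0.12. Ibsp was at −0.55, Spp1 at −0.19, Alpl, Sp7 and Pth1r at −0.12 each, Dlx5 at 0.08 and Runx2 at 0.29. Outside those cells all 8 were lower in RA, with a median of −0.82, and Bglap (−1.10) and Sp7 (−1.06) passed 2-fold, beside 0.795% of genes. There Runx2 was at 203 CPM in control_7d and 116 in RA_7d (−0.81). A wider set fixed by at least 3 UMIs of Col2a1 or Acan took in 33.1% of control_7d and 14.2% of RA_7d, and without it 1 gene, Alpl, passed 2-fold at 7 dpf, beside 0.794% of genes. At 4 dpf the same set was 9.15% of control_4d and 7.15% of RA_4d, and without it 4 of 6 genes were over 2-fold higher in RA, beside 0.769%. Some differences from 4 to 7 dpf had another direction without cartilage cells. Without the wider set Pth1r was at −0.047 in control, and Alpl at −0.31 and Ibsp at −0.21 in RA. Without the Col2a1 cells neither Ibsp, at 0.09, nor Alpl was over 2-fold higher in RA, whereas with them Ibsp was. Spp1 was at −1.24 and Dlx5 at −1.16 without them, both over 2-fold lower and in the same direction as with them. How far the share of cartilage cells sets the pooled differences was not tested.

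**Figure D3:**
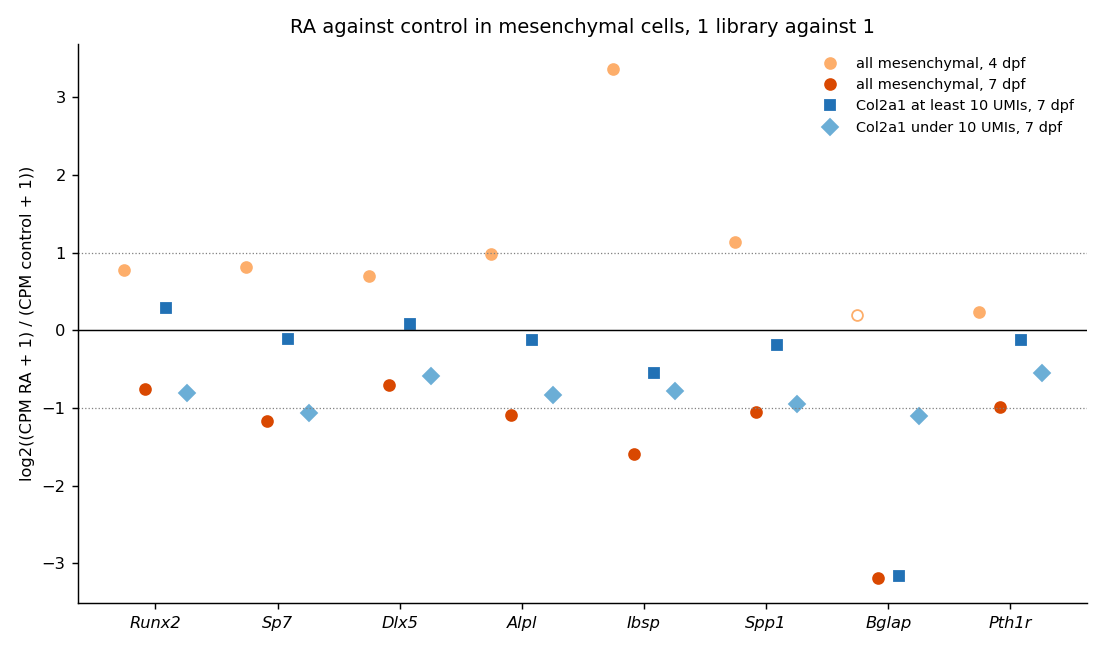
Log2 ratio of RA to control with 1 CPM added, 1 library against 1, in all mesenchymal cells at 4 and 7 dpf (circles) and, at 7 dpf, in cells with at least 10 Col2a1 UMIs (squares) and in those with fewer (diamonds), with dotted lines at 2-fold and an open circle for Bglap at 4 dpf, which had under 50 UMIs. At 7 dpf all 8 genes lay below 0 in all mesenchymal cells, while Bglap (−3.16) was the only gene past 2-fold in the Col2a1 cells.

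The cells with at least 10 Ibsp UMIs show the same mixture. Of them 65.8% in control_7d and 76.3% in RA_7d had at least 10 Col2a1 UMIs, against 0% in RA_4d, where no gated cell reached that limit and the richest Ibsp cell held 4 Col2a1 UMIs. An Sp7 UMI was in 69.5%, 74.6% and 47.6% of them in control_7d, RA_7d and RA_4d. In RA_4d 90.5% held at least 3 UMIs of the collagenase Mmp13, which hypertrophic chondrocytes and osteoblasts secrete, compared with 33.2% in control_7d and 28.8% in RA_7d. A UMI of Col10a1, the collagen of hypertrophic cartilage, was in 34.2% of them in control_7d, 57.6% in RA_7d and 4.8% in RA_4d.

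Cells with a Runx2 UMI after thinning were compared with those without in each library. In control_7d (1982 positive cells) 7 of the 7 other genes were over 2-fold higher in positive cells, beside 0.870% of genes, and in RA_7d (1900 cells) it was again 7 of 7, beside 0.674%. The log2 differences in control_7d and RA_7d were 2.72 and 5.82 for Ibsp, 3.88 and 1.45 for Bglap, 2.30 and 2.91 for Alpl, 2.18 and 1.77 for Sp7, 1.43 and 1.67 for Pth1r, 1.42 and 1.30 for Dlx5, and 1.24 and 1.87 for Spp1. The Ibsp value of RA_7d rests on few cells, since the top 40 gated cells held 97.0% of its UMIs before thinning. By share, Ibsp was in 7.05% of the Runx2-positive and 4.76% of the Runx2-negative cells there, and in 16.2% and 8.41% in control_7d. Without cells holding at least 3 UMIs of Col2a1 or Acan, 2 genes passed in control_7d and 2 in RA_7d. The share over all genes was not counted there. Fewer genes also had enough UMIs, and how far the loss of cartilage cells or of UMIs lowered the counts was not tested. In RA_4d (408 cells) 3 of 4 genes passed, beside 1.05%, with Ibsp at 5.99, Spp1 at 3.65, Alpl at 1.28 and Pth1r at 0.40. In control_4d (354 cells) 1 of 2 did, beside 0.848%, Spp1 at 1.34, with Pth1r at 0.32. Before thinning, positive cells were the deeper ones in each library, with medians of 25531 against 23273.5 UMIs in control_7d.

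The shares also followed the number of Runx2 UMIs. In control_7d an Alpl UMI was in 7.22% of cells with no Runx2 UMI, 10.8% with 1, 18.6% with 2 or 3, 27.3% with 4 to 7 and 50.6% with 8 or more. In RA_7d the values were 3.42%, 5.19%, 12.6%, 22.7% and 66.7%. Sp7 went from 1.29% to 27.9% in control_7d and from 0.67% to 32.2% in RA_7d, and Dlx5 from 2.48% to 15.6% and from 1.60% to 27.8%. Ibsp went from 8.41% to 42.9% in control_7d. In RA_7d it was lower with 1 Runx2 UMI (3.39%) than with none (4.76%), and reached 36.7%. Pth1r changed little up to 1 Runx2 UMI (27.2% and 26.5% in control_7d) and reached 59.7%, and in RA_7d it reached 61.1%. Bglap stayed rare even in the cells richest in Runx2, at 11.7% in control_7d and 4.44% in RA_7d. The top step held 154 cells in control_7d and 90 in RA_7d. Cells with cartilage genes were not left out here.

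**Figure D4:**
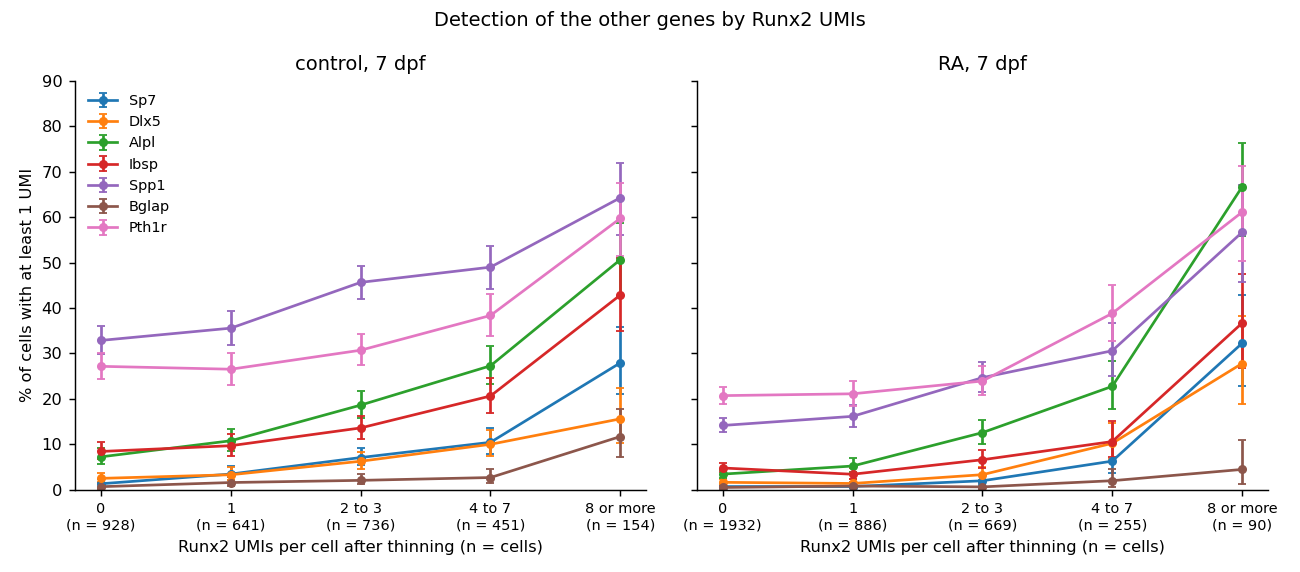
Share of gated cells with a UMI of each gene (percent, thinned) by the number of Runx2 UMIs in the cell, in control_7d and RA_7d, with exact Clopper-Pearson intervals. Alpl went from 7.22% to 50.6% in control_7d and from 3.42% to 66.7% in RA_7d.

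Among Runx2-positive cells the RA library was still the lower one at 7 dpf for all 8 genes. Of the 7 genes other than Runx2, 3 were over 2-fold lower, beside 0.918% of genes, namely Bglap (−3.07), Ibsp (−1.19) and Sp7 (−1.14). Spp1 was at −0.94, Alpl at −0.77, Pth1r at −0.74, Dlx5 at −0.43 and Runx2 itself, whose UMI chose the cells, at −0.37. Sp7-positive cells stood out more sharply, with 7 of the 7 other genes over 2-fold higher than in Sp7-negative cells in control_7d (median log2 3.67), beside 4.57% of genes, and again 7 of 7 in RA_7d (median 3.48), beside 7.01%. Among Sp7-positive cells, 176 in control_7d and 77 in RA_7d, only Bglap was over 2-fold lower (−4.08), 1 of 7, beside 1.46%. It rests on few cells, since 23 of the 176 and 4 of the 77 held a Bglap UMI. The other genes in Sp7-positive cells were at 0.38 for Runx2, 0.27 for Dlx5, −0.10 for Alpl, −0.21 for Ibsp, −0.36 for Pth1r and −0.67 for Spp1.

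Detection of Sp7 was mostly nested in that of Runx2, but not every pair was nested. Sp7 was in 32.1% of the Dlx5-positive cells of control_7d, and Dlx5 in 29.0% of its Sp7-positive cells. In control_7d 93.2% of Sp7-positive cells had a Runx2 UMI, while 8.27% of Runx2-positive cells had an Sp7 UMI. Of the Sp7-positive cells, 86.9% held Pth1r, 84.7% Alpl, 64.8% Spp1, 63.6% Ibsp, 29.0% Dlx5 and 13.1% Bglap. In RA_7d a Runx2 UMI was in 83.1% of Sp7-positive cells. Alpl was in 80.5% of them, Pth1r in 77.9%, Spp1 in 53.2%, Ibsp in 42.9%, Dlx5 in 32.5% and Bglap in 5.19%. Of the 61 Bglap-positive cells of control_7d 90.2% held Runx2, 78.7% Alpl, 73.8% Pth1r and 37.7% Sp7. The shares were lower in the 29 Bglap-positive cells of RA_7d, at 69.0% for Runx2, 41.4% for Alpl, 51.7% for Pth1r and 13.8% for Sp7. A gene found in more cells meets a rarer one more often, so the direction follows the order of detection.

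The mesenchymal gate was not the only source of these transcripts. It held 17.4% of kept cells in control_4d, 18.4% in RA_4d, 39.7% in control_7d and 48.9% in RA_7d. Its part of the UMIs thus follows the mix of cells as well as the level. Its part of all UMIs of kept cells was 86.2% to 94.6% at 7 dpf for Sp7, Dlx5, Alpl, Ibsp and Pth1r, and 90.2% and 85.0% for Bglap in control_7d and RA_7d. At 4 dpf it held 43.2% and 75.0% of the Sp7 UMIs, of which myeloid cells held 43.2% and 5.77%, and 9.68% and 25.0% of the few Bglap UMIs, in control_4d and RA_4d. For Runx2 it was 47.7% in control_4d, 58.3% in RA_4d, 80.9% in control_7d and 82.6% in RA_7d. Myeloid cells held 28.1% of the Runx2 UMIs in control_4d and 18.3% in RA_4d, at 34.5 and 34.1 CPM. Leukocytes outside the myeloid gate were at 81.7 to 122 CPM of Runx2 and muscle progenitors up to 84.7 CPM, compared with 2.36 to 4.59 CPM in endothelial cells. For Alpl the endothelial gate held 41.0% of the UMIs in control_4d and 19.5% in RA_4d and 1.76% and 2.99% in control_7d and RA_7d.

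Myeloid cells were the largest source of Spp1 in 3 of the 4 libraries. They held 88.5% of its UMIs in control_4d, 74.3% in RA_4d, 46.4% in control_7d and 38.5% in RA_7d. The mesenchymal gate held 1.84%, 14.3%, 35.2% and 50.8%. Myeloid cells were 2901 of the 5470 kept cells in control_4d and 2015 of 4110 in RA_4d. At 7 dpf they were 2397 of 7676 in control_7d and 1493 of 8223 in RA_7d. These parts thus follow the mix of cells as well as the level. The myeloid level was 5857 CPM in control_4d, 1500 in RA_4d, 1866 in control_7d and 1048 in RA_7d. Osteoclast-like cells, set apart from these by Acp5 and Ctsk, were at 3285, 620, 809 and 2506 CPM, from 108, 132, 100 and 23 cells. The RA_7d set was less like osteoclasts by its markers. Acp5, Ctsk, Mmp9, Dcstamp, Calcr and Ocstamp summed to 4071 CPM there, with Calcr at 0, and to 8111 to 13486 CPM in the other libraries. The myeloid markers summed to 13502 CPM in that set and to 1849 to 4537 CPM in the others. Muscle progenitors reached 1461 CPM in control_4d and 75.9 to 375 in the other libraries.

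Myeloid Spp1 was lower in RA at both times, whereas the level of mesenchymal Spp1 was higher at 4 dpf and lower at 7 dpf. The mesenchymal direction at 4 dpf depended on the cells kept, and was −0.27 with the looser cell filter. The share of mesenchymal cells with an Spp1 UMI was lower in RA_4d (27.3%) than in control_4d (44.9%, at the level of background). The log2 difference of myeloid Spp1, RA to control, was −1.96 at 4 dpf, with 1 of 3 genes past 2-fold, beside 0.524% of genes. At 7 dpf it was −0.83, with 0 of 5 past 2-fold, beside 0.402%. With myeloid cells that also held at least 3 UMIs of the macrophage genes C1qa, C1qb, Csf1r and Adgre1, chosen after seeing the data, the values were −1.83 and −0.81. Cells with neutrophil genes were 0.862% of the myeloid gate in control_4d, 6.95% in RA_4d, 1.84% in control_7d and 1.67% in RA_7d. Endothelial Spp1 went the same way, with 130 CPM in control_4d, 20.1 in RA_4d, 26.6 in control_7d and 17.9 in RA_7d. The part of free RNA in these values was not tested.

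Lyz2, the lysozyme gene of myeloid cells, was set beside Spp1 as a mark of macrophage RNA. Spp1 UMIs per Lyz2 UMI were 0.610, 0.223, 0.174 and 0.106 in the myeloid cells of control_4d, RA_4d, control_7d and RA_7d, and 4.97, 19.2, 10.5 and 9.61 in the mesenchymal gate. The mesenchymal ratio was above the myeloid one in each library. The 8 myeloid markers together were at 45.5 to 93.7 CPM in that gate and at 11129 to 17092 CPM in the myeloid cells. In endothelial cells the ratio was 2.26, 0.509, 0.449 and 0.279, also above the myeloid one, and in muscle progenitors 34.6, 8.19, 11.7 and 3. A ratio above the myeloid one therefore does not tell RNA made in a cell from free RNA, whose part was not tested. Gated cells with a UMI of Cd68, Csf1r or Adgre1 had Spp1 at 242, 271, 491 and 246 CPM, and those without at 186, 494, 580 and 275 CPM. Spp1 was thus counted in both sets, and free RNA can reach both.

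**Figure D5:**
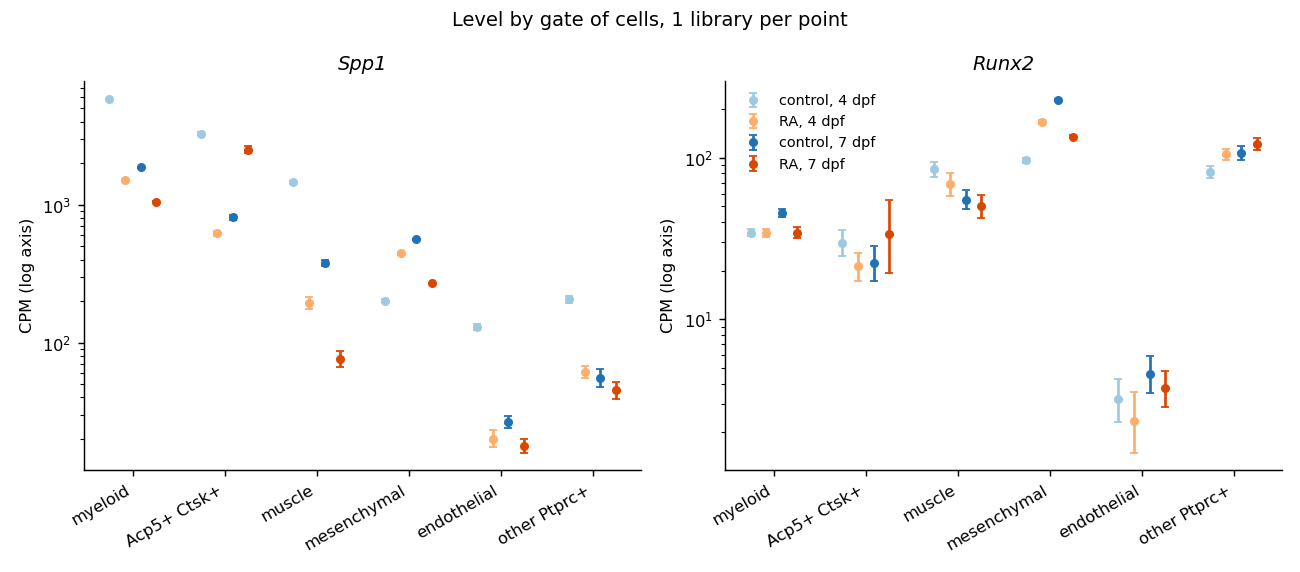
Level of Spp1 (left) and Runx2 (right) in CPM on a log axis in 6 gates of cells, 1 library per point, with exact Poisson intervals (95%). Spp1 was highest in the myeloid cells of control_4d (5857 CPM), and Runx2 was highest in the mesenchymal cells of control_7d (229 CPM) and lowest in endothelial cells.

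Other genes of bone formation were given by 4 lists. Of 15 further regulators, 14 were measured at 7 dpf and none was past 2-fold between RA and control (median log2 0.14). Atf4, Twist1 and Zfp521, the most abundant, were at 0.18, 0.49 and 0.12, and Twist2 and Mef2c, among the most changed, at 0.80 and −0.62. Of 8 measured late osteoblast and osteocyte genes 3 were over 2-fold lower, Bglap2 (−3.13), Dmp1 (−1.59), which osteocytes make, and Ifitm5 (−1.15), with a median of −0.63. Of 15 matrix and mineral genes 3 were, Car12 (−1.83), Enpp1 (−1.53), which makes pyrophosphate, and Smpd3 (−1.08), with a median of −0.24, while Col1a2 and Sparc were at 0.40 and 0.25. Of 14 receptors and signals, Bmp4 was over 2-fold higher (1.45) and Fgfr3 over 2-fold lower (−1.14), with a median of 0.12. Across all genes, 1.72% were over 2-fold higher and 0.906% lower. At 4 dpf Tnfsf11, the osteoclast-inducing cytokine RANKL, was the only 1 of 4 measured late genes past 2-fold, at 17.6 CPM in control_4d and 52.4 in RA_4d. Of 13 receptors and signals Vdr, the vitamin D receptor, was over 2-fold higher (1.32) and Pthlh, a ligand of Pth1r, over 2-fold lower (−1.33), both named after their values were seen. None of the 11 regulators or 15 matrix genes passed. Across all genes at 4 dpf, 0.699% were over 2-fold higher and 0.862% lower.

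Over the 6742 thinned cells of 7 dpf, the genes most alike to each were given by Pearson's r on log counts among 10277 genes, as a description, since these cells share 2 libraries and cell states. Alpl and Ibsp went together (0.64), as did Alpl and Col9a2 (0.64), Alpl and Pth1r (0.63) and Ibsp and Pth1r (0.59). Sp7 was nearest to Alpl (0.52), Pth1r (0.49) and Smpd3 (0.47), and Runx2 to Alpl (0.35), Acan and Col12a1 (0.33 each). Dlx5 reached 0.3 only with Alpl (0.34), and Spp1 only with Ibsp (0.34) and Timp1 (0.31). Taken in control_7d and RA_7d apart, Spp1 was at 0.37 and 0.23 with Ibsp and at 0.260 and 0.296 with Timp1. Runx2 was at 0.27 and 0.33 with Acan and at 0.270 and 0.272 with Col12a1. The partners of Bglap were Chad (0.36), Snorc (0.32) and Ibsp (0.31), and those of Pth1r were Hapln1, Col2a1 (0.66 each) and Col9a1 (0.65). For Bglap these were 0.48, 0.37 and 0.33 in control_7d but 0.19, 0.22 and 0.23 in RA_7d. The other pairs named here reached 0.3 in each of the 2 libraries. Chad, Snorc, Hapln1, Col2a1, Col9a1, Col9a2 and Acan are cartilage genes.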

How the data were processed

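The deposited files hold raw UMI counts for each gene in each barcode, made by the authors from Chromium Single Cell 3′ v3.1 libraries (per their processing notes, Cell Ranger 7.0.1 on mm10). Whether intronic reads were counted is not given in the sources used here. Cells with 4000 to 50000 UMIs, 2000 to 7000 features and at most 8% mitochondrial UMIs were kept, as in the paper's methods, and the kept cells of a library held 83405494 to 156567619 UMIs. Counts were summed over gated cells and given as CPM, with exact Poisson intervals. Shares have exact Clopper-Pearson intervals after thinning to 10000 UMIs, and ratios exact conditional intervals. Genes with at least 50 UMIs over both sides were compared, with 1 CPM added on the log2 scale. Scrublet in scanpy 1.11.5 called 609 of 25479 kept cells doublets (2.39%, 142 of them gated), which were left out only in an alternative. The myeloid gate took cells with a Ptprc UMI and at least 10 UMIs of Cd68, Lyz2, Csf1r, Adgre1, C1qa and C1qb, and endothelial cells had no Ptprc and at least 3 UMIs of Pecam1 and Cdh5. Tables and plots used pandas 2.3.3, scipy 1.17.1, numpy 2.4.6 and matplotlib 3.10.9 under Python 3.11.15, and the calculations were tested on simulated data. No hypothesis test was made, since each condition is 1 library. Named genes were the 8 genes, the copies of Bglap, for each of 4 lists the 3 most abundant and the 3 with the largest ratio at 7 dpf, and for each gene the 3 nearest by Pearson's r of at least 0.3. Not all genes named by this rule are reported here. The genes and lists were chosen with earlier results of these data known. The alternatives were other cell filters, gates, thinning, pseudocount, minimum, scaling (TMM, the trimmed mean of M values) and limit for a Runx2-positive cell. Further ones left out doublets, cartilage cells or macrophage-gene cells. Leaving out cells with 10 Col2a1 UMIs or the top Spp1 or Ibsp cell, and the narrower myeloid set, were added after seeing the data.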

Additional observations from a re-analysis of the deposited data

Results flagged for a closer look

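For 7 genes the log2 difference between RA and control had opposite signs at the 2 time points, and this difference was not tested. The value at 7 dpf minus that at 4 dpf was −1.53 for Runx2, −1.98 for Sp7, −1.40 for Dlx5, −2.08 for Alpl, −4.95 for Ibsp, −2.19 for Spp1 and −1.23 for Pth1r. Each time point compares 1 RA library with 1 control library.

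Gated cells above the limit of 50000 UMIs were outside the cells whose levels are reported, and they held some genes above the interval of the control cells of the same kind. In RA_4d and control_4d these were Runx2 at 244 and 227 CPM, Dlx5 at 7.46 and 5.18, and Alpl at 8.67 and 2.11. Ibsp was at 81.4 and 5.83 CPM there, and Pth1r at 37.4 and 22.3. In RA_7d and control_7d it was Spp1, at 739 and 664 CPM. At 4 dpf Spp1 went the other way, with 497 CPM in RA_4d and 986 in control_4d. In control_4d 96.3% of the Ibsp UMIs of these cells were in 1 cell. At 7 dpf some other genes went the other way, with Runx2 at 216 CPM in RA_7d and 328 in control_7d and Alpl at 81.4 and 173. Ibsp was at 561 and 1791 CPM and Pth1r at 136 and 227. The remaining genes overlapped in their intervals. Sp7 was at 12.9 CPM in RA_7d and 13.5 in control_7d, Dlx5 at 6.88 and 8.71, and Bglap at 0.688 and 0.681 (7 and 9 UMIs). The comparison rests on counting intervals alone and was not tested.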

How the results depend on the processing

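No paired analysis was possible because each condition has 1 library. Over 12 alternatives, all 96 values of RA against control at 7 dpf kept their direction, as did 80 of 81 at 4 dpf. For 7 against 4 dpf 93 of 96 did in control and 90 of 96 in RA. Adding 10 CPM or lowering the minimum to 10 UMIs cannot turn a direction, so those values could not have differed in it. With the looser cell filter Spp1 was at −0.27 for RA against control at 4 dpf and −0.10 for control at 7 against 4 dpf, 4 of 8 genes held their rank of detection in control_4d, and 3 genes were past 2-fold in Runx2-positive cells of control_4d. Without cells holding 3 UMIs of Col2a1 or Acan, Pth1r was at −0.047 for control at 7 against 4 dpf, and Alpl at −0.31 and Ibsp at −0.21 for RA. That left 4 genes higher in RA at 4 dpf, 1 lower at 7 dpf, 0 higher and 2 lower in RA_7d than RA_4d, 2 higher in Runx2-positive cells of control_7d and 2 of RA_7d (fewer genes had enough UMIs), and 4 ranks held in control_7d and 4 in RA_7d. Without cells holding 10 Col2a1 UMIs, 2 genes were lower in RA at 7 dpf, and 0 were higher and 2 lower in RA_7d than RA_4d. Without cells with Cd68, Csf1r or Adgre1, 4 ranks held in control_4d and 4 in RA_4d, and 0 genes were past 2-fold in Runx2-positive cells of control_4d. With the Col1a1 gate at 10 UMIs, or without the top Spp1 cell, 1 gene was higher in RA at 4 dpf. Adding 10 CPM left 3 lower at 7 dpf. Thinning to 4000 UMIs held 4 ranks in RA_4d, and no thinning held 4 in control_7d and gave 3 genes past 2-fold in Runx2-positive cells of control_4d. With all gated cells 1.32% of genes were over 2-fold lower in RA_7d than RA_4d. For RA against control without cartilage cells the shares over all genes are given above. The other alternatives were counted for the 8 genes only, so those counts have no share over all genes beside them. The cause of these changes was not tested. Sp7 and Bglap at 4 dpf rest on 3 to 39 UMIs, which limits the precision of their shares.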
